A study of Drosophila melanogaster with 8 samples.

Results

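Synaptic vesicle endocytosis genes were followed from head homogenate (input) into synaptosomes, the pinched-off nerve terminals that can be floated out of homogenized neural tissue. They are 10 genes of clathrin-mediated vesicle retrieval: Chc, Clc, AP-2alpha, lap, Eps-15, shi, EndoA, Amph, Dap160 and Synj. The genes were listed by name, with earlier results of these data known. All 10 were among the 10669 genes of the count table, and all 10 were among the 8159 genes that passed the filter on low counts and were tested. At the gene level 0 of the 10 were called different between synaptosomes and input in edgeR's quasi-likelihood test with Benjamini-Hochberg adjustment, and DESeq2 also called 0. Across all tested genes the edgeR test called 4.13% lower and 0.944% higher in synaptosomes. Among the 4299 tested genes in the same range of input level as the 10, it called 1.02% lower. DESeq2 called 621 lower and 266 higher of 9663 genes. In an alternative edgeR fit that treated libraries of the same number as pairs, Chc and EndoA were called lower, among 124 of 8066 genes.

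At a nerve terminal, each vesicle that fuses to release transmitter has to be taken back from the membrane. Clathrin and its adaptors coat the patch to be retrieved, curved membrane-binding proteins and the GTPase dynamin narrow and cut its neck, and a lipid phosphatase with a chaperone then strips the coat. In Drosophila the temperature-sensitive shibire alleles, which paralyse flies when dynamin stops, tied dynamin to vesicle retrieval at the synapse. The proteins act at the terminal, while the site where each of their mRNAs is translated is a separate question, and the comparison asks how much of each mRNA was recovered with synaptosomes.

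The flies were 3-day-old w1118 adults, labelled wt, and all libraries share this genotype. Per the study's methods, heads were sieved from blended flies and homogenized, and input was taken from the strained homogenate. Synaptosomes were the pooled layers 3 and 4 of a Percoll gradient, and the methods describe layer 3 as holding other membranes too. Each group had 4 libraries of 3′-end sequencing, a method that counts transcripts at their polyadenylated ends. The methods say that each synaptosome sample was divided between RNA and protein work and that the protein work used biological replicates. They do not say which RNA libraries these match, so the replicate spread behind each p-value may be partly technical. Libraries are called 1, 2, 3 and old, since 1 count column of each group carries that word in place of a number. These 2 columns match no sample title, so they were placed in their group by the first part of the column name and are tied to no particular deposited sample. Values below are always in the order 1, 2, 3 and old.

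Synaptosome libraries held 1029666 to 9397652 counts and input libraries 7940909 to 16865581, and synaptosomes detected 6286 ± 984 genes against 9242 ± 377 (mean ± SD, n = 4, as for all means given here). Levels are CPM, counts scaled to a common library size, with the library total adjusted by TMM, a method that takes most genes as equal between libraries. Because each transcript gives its reads at its end, CPM was not divided by gene length. A level is a share of the polyadenylated RNA of a library, so fewer terminals and less mRNA per terminal cannot be told apart. A count of 0 allows a level of up to 3 counts, which was 2.63 and 2.12 CPM in synaptosome libraries 2 and 3 and 0.217 to 0.700 CPM in the other 6 libraries.

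Markers of neurons and other head cells were present in both groups. All 10 neuronal markers had counts in synaptosomes, with summed shares of 0.00940% to 0.0273% against 0.0121% to 0.0632% in input, and 0 of 10 were called. Their median log2 fold change was −1.73, with 7 of 10 negative. Of 10 photoreceptor markers 5 were lower in synaptosomes (summed share 2.24% to 9.86% against 5.34% to 7.79%), as were 2 of 9 muscle markers (0.124% to 0.313% against 0.343% to 0.904%). Of 7 glial markers 1 was higher (0.156% to 0.424% against 0.144% to 0.294%). A further listed glial marker, ebony, was left out of these because its symbol was not matched. Under the symbol e, this gene had a log2 fold change of −0.70 ± 0.82 (SE, edgeR adjusted p = 0.827). Of the cuticle and epidermis markers 2 of 4 tested were higher (0.0252% to 0.0490% against 0.00717% to 0.0131% over 7 genes). Fat body markers (0.0915% to 1.27% against 0.328% to 1.30%) and hemocyte markers (0.0152% to 0.0391% against 0.0242% to 0.0298%) had no call. The markers Npc2d, Cpr65Ec and y had no count in any synaptosome library. The part of these cell types in the levels that follow was not tested.

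The 10 genes together took a smaller share of the RNA in synaptosomes than in input. Their summed level was 260, 270, 286 and 321 CPM in synaptosomes and 786, 612, 668 and 407 CPM in input, or 284 ± 26.5 against 618 ± 158 CPM. Every synaptosome library lay below every input library, and no test was made of the sum. The synaptosome libraries stood close to each other in this sum although single genes in them did not, as the plot of stacked levels shows. As a share of the deposited counts, which involves no scaling, the sum was 0.0280% ± 0.00305 against 0.0647% ± 0.0237. Input old was the lowest of the input libraries at 0.0334%. A smaller share was not particular to these genes. The 23 other endocytosis genes described below took 0.106% to 0.168% in synaptosomes against 0.163% to 0.344% in input, and the marker lists above moved in both directions.

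**Figure D1:**
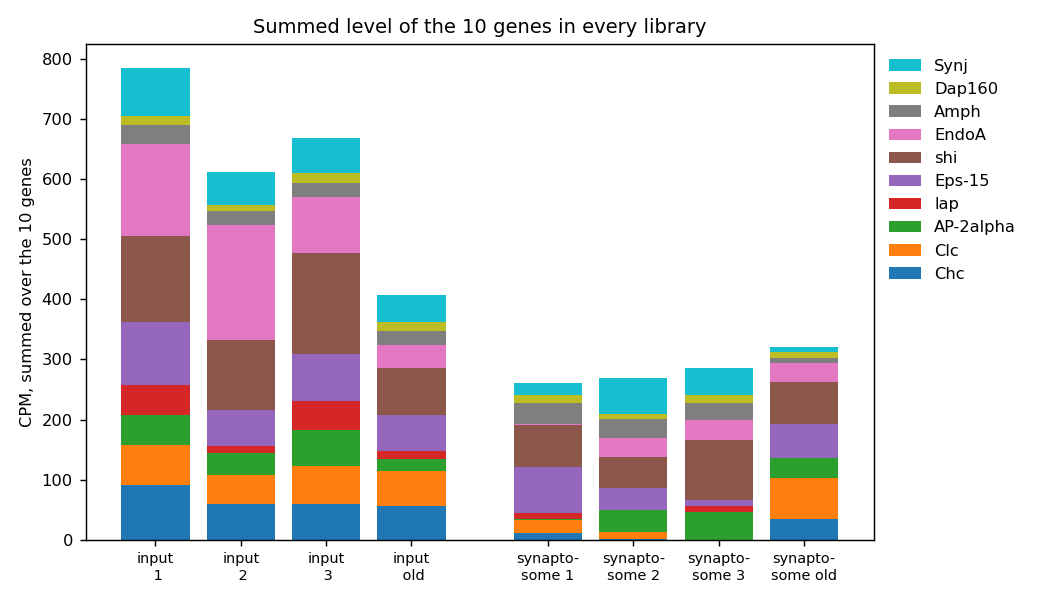
Level of the 10 genes in each of the 8 libraries in CPM, stacked by gene, with input on the left and synaptosomes on the right. The summed level runs from 407 to 786 CPM in input and from 260 to 321 CPM in synaptosomes, with different genes making up each synaptosome bar.

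Gene by gene, 9 of the 10 log2 fold changes (synaptosome minus input) were negative, and their median was −0.82. Over all tested genes the median was −0.35 and 62.3% were negative, and over the 4299 tested genes within the same range of input CPM the median was −0.37 and 64.5% were negative. In 3 of the 10 (Chc, lap and EndoA) every synaptosome library lay below every input library, a pattern found in 14.5% of all tested genes and in 13.0% of those in the same range. The opposite pattern was found in 0 of the 10 and in 2.99% of all tested genes. At an unadjusted p under 0.05, 2 of the 10 (EndoA and Chc) were lower and 0 were higher, and 9.85% of all tested genes were lower by that rule.

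**Figure D2:**
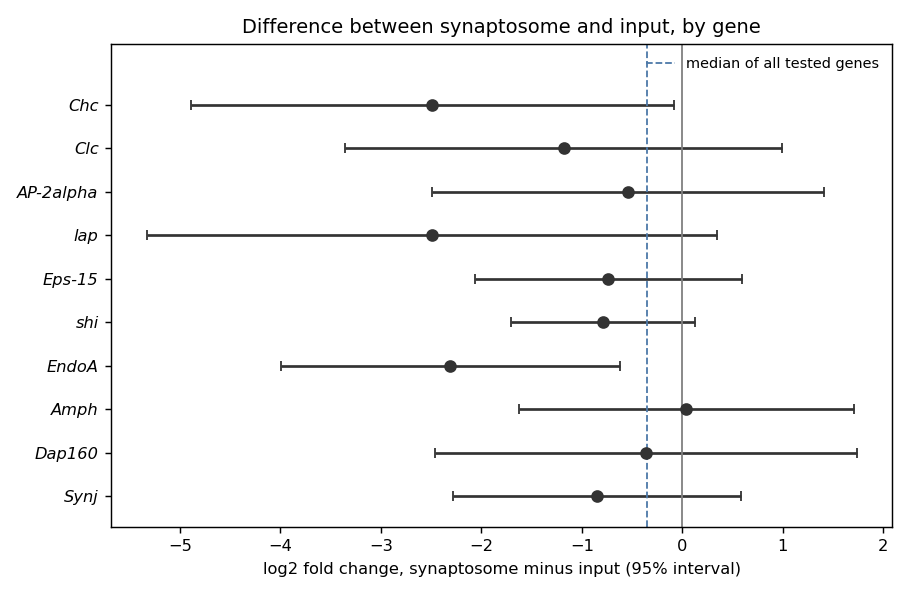
Log2 fold change of each gene, synaptosome minus input, with its 95% interval from the edgeR fit. The dashed line marks the median of all tested genes at −0.35. The intervals of Chc and EndoA stay below 0 before adjustment and the other 8 include 0, with that of Amph running from −1.63 to 1.71.

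Among the coat genes, every synaptosome library of Chc lay below every input library, and the difference did not pass adjustment. Chc (FBgn0000319, chromosome X, 15827986 to 15835490, minus strand, in the dm6 genome) encodes the clathrin heavy chain, the leg of the 3-legged clathrin unit. Its level was 10.5, 0.876, 0 and 33.99 CPM in synaptosomes and 90.5, 59.1, 59.2 and 56.1 CPM in input. The highest synaptosome library, old, did not reach the lowest input library. Behind these levels stood 45, 1, 0 and 290 counts in synaptosomes and 547 to 805 in input, and synaptosome old alone held 74.9% of the summed synaptosome CPM of Chc. Its log2 fold change was −2.49 ± 1.10 (SE), with an edgeR adjusted p of 0.324 and a 95% interval of −4.89 to −0.09. Without synaptosome old it was −3.97 (edgeR adjusted p = 0.0523).

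Clc (FBgn0024814, chromosome 3L, 20241053 to 20243735, plus strand) encodes the clathrin light chain, which binds the heavy chain and tunes coat assembly. It measured 22.6, 11.4, 0 and 69.2 CPM in synaptosomes and 67.1, 48.5, 64.0 and 57.7 CPM in input. Here 3 synaptosome libraries lay below all input libraries, while synaptosome old lay above all of them and held 67.0% of the summed synaptosome CPM. Clc had a log2 fold change of −1.18 ± 0.997 (edgeR adjusted p = 0.709), and it was −2.36 without synaptosome old. In synaptosome 3, neither clathrin gene had a count. Clc overlaps CG6951 on its own strand and CG17233 on the other, so reads of shared sequence may be uncertain.

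AP-2alpha (FBgn0264855, chromosome 2L, 408030 to 414777, minus strand) encodes a large subunit of AP-2, the adaptor that ties clathrin to membrane lipid and cargo. Its level was 0.933, 36.8, 46.6 and 32.5 CPM in synaptosomes and 50.7, 37.0, 59.9 and 21.1 CPM in input. Only synaptosome 1, with 4 counts, lay outside the range of input. The log2 fold change of −0.54 ± 0.89 had a 95% interval of −2.49 to 1.41 (edgeR adjusted p = 0.898), and it was −0.14 without synaptosome 1.

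lap (FBgn0086372, chromosome 3R, 7186994 to 7200941, plus strand) is the fly AP180, a clathrin assembly protein that also helps to retrieve the vesicle SNARE synaptobrevin. It measured 10.96, 0, 9.88 and 0.703 CPM in synaptosomes against 49.9, 12.0, 47.1 and 12.9 CPM in input. The groups did not overlap, though synaptosome 1 came close to input 2. Input itself was uneven, with libraries 1 and 3 high and libraries 2 and old low. For lap the log2 fold change was −2.49 ± 1.30 (edgeR adjusted p = 0.447), with a 95% interval of −5.33 to 0.35, wider than that of Chc. Without synaptosome 1 it was −3.16 (edgeR adjusted p = 0.251).

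Eps-15 (FBgn0035060, chromosome 2R, 24768314 to 24775265, minus strand) is a scaffold that gathers AP-2 and Dap160 at the site of retrieval. Its level was 76.3, 37.7, 9.18 and 56.8 CPM in synaptosomes and 104, 59.0, 78.2 and 60.3 CPM in input. Synaptosome 1 lay within the range of input and the other 3 libraries below it. Eps-15 had a log2 fold change of −0.74 ± 0.61 (edgeR adjusted p = 0.703).

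**Figure D3:**
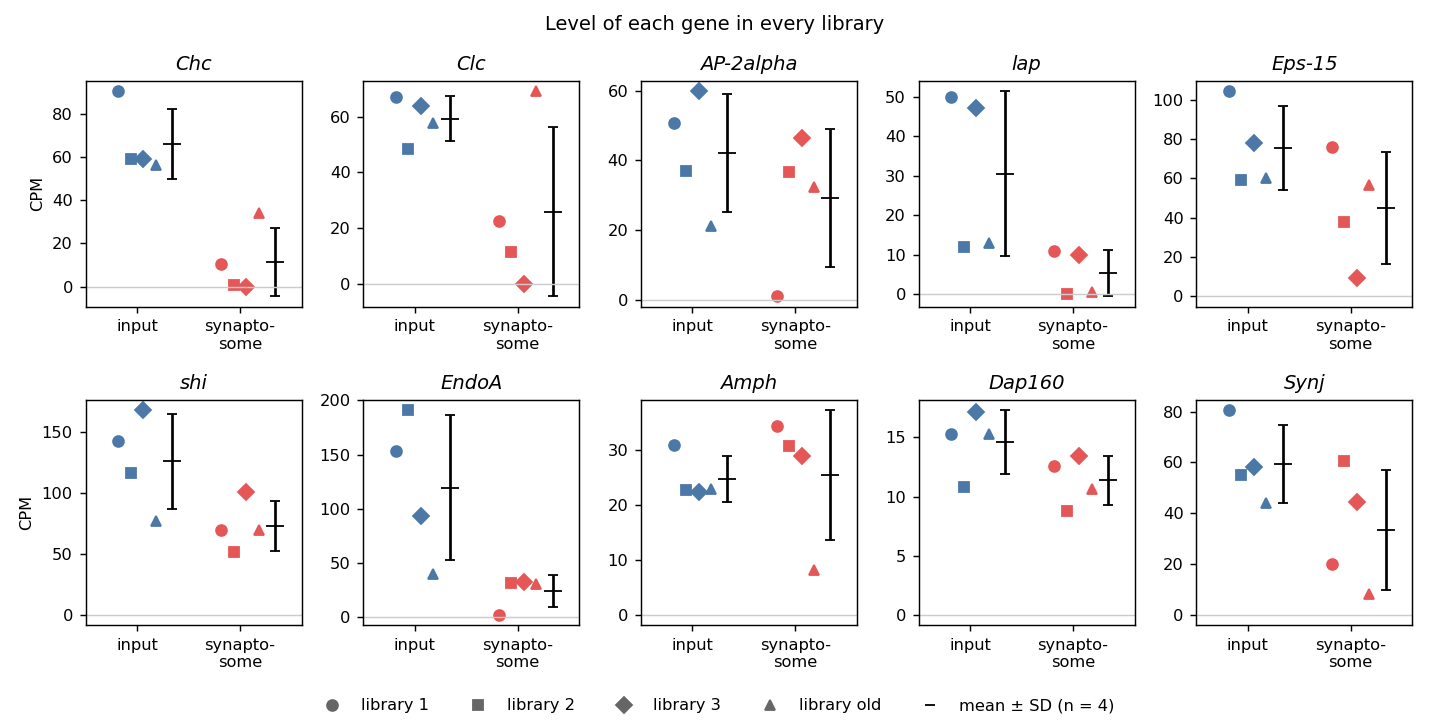
Level of each of the 10 genes in CPM in every library, input in blue and synaptosomes in red, with a marker shape for each library and the mean ± SD (n = 4) in black. Vertical scales differ between panels. The groups are separate for Chc, lap and EndoA and overlap for the other 7 genes, and Dap160 stays between 8.76 and 17.2 CPM in all 8 libraries.

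The genes of membrane bending and fission ranged from EndoA, whose groups did not overlap, over shi to Amph and Dap160, whose mean levels were near those of input. shi (FBgn0003392, chromosome X, 15892116 to 15906716, plus strand) encodes dynamin, the GTPase that cuts the vesicle neck, and was on average the most abundant of the 10 in both groups. It measured 70.0, 51.7, 101 and 69.7 CPM in synaptosomes and 143, 117, 169 and 76.8 CPM in input. Synaptosome 3 lay above input old, and the other synaptosome libraries lay below all of input. For shi the log2 fold change was −0.79 ± 0.42 with a 95% interval of −1.70 to 0.13 (edgeR adjusted p = 0.462), the smallest standard error of the 10.

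EndoA (FBgn0038659, chromosome 3R, 18906609 to 18910755, plus strand) encodes endophilin, a curved membrane-binding protein that brings synaptojanin to the forming vesicle. Its level was 2.10, 31.5, 32.5 and 30.8 CPM in synaptosomes and 154, 191, 93.5 and 39.7 CPM in input. Synaptosome libraries 2, 3 and old were nearly equal, synaptosome 1 had 9 counts, and input old came nearest to the synaptosome group. EndoA had a log2 fold change of −2.31 ± 0.77 with a 95% interval of −3.998 to −0.62. EndoA had the smallest p of the 10 (0.0114), and its edgeR adjusted p was 0.138. Its unadjusted p stayed under 0.05 in each of the 18 alternative analyses, and its log2 fold change ran from −3.24 to −1.93 over them. Its edgeR or DESeq2 adjusted p ran from 0.0229 to 0.381. It passed in only 1 of the 18, the edgeR fit that treated libraries of the same number as pairs.

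Amph (FBgn0027356, chromosome 2R, 12593604 to 12612068, plus strand) encodes amphiphysin, which in vertebrates brings dynamin to the vesicle neck and in flies is known for shaping the membranes of muscle and photoreceptors. It measured 34.3, 30.7, 28.9 and 8.09 CPM in synaptosomes and 30.9, 22.7, 22.4 and 22.9 CPM in input. Synaptosome old lay below all of input, 2 and 3 within its range and 1 above it. The log2 fold change was 0.04 ± 0.77 (edgeR adjusted p = 0.995), and its 95% interval of −1.63 to 1.71 does not show equal levels. Its sign turned in 7 of the 18 alternatives, for instance to −0.15 without synaptosome 1.

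Dap160 (FBgn0023388, chromosome 2L, 21134439 to 21142347, minus strand) encodes intersectin, a scaffold that holds dynamin, endophilin and Eps-15 together. It was the least abundant of the 10 in input and the steadiest in synaptosomes, at 12.6, 8.76, 13.4 and 10.7 CPM against 15.3, 10.8, 17.2 and 15.3 CPM. The coefficient of variation was 18.3% in synaptosomes and 18.5% in input. The log2 fold change was −0.36 ± 0.97 with a 95% interval of −2.46 to 1.74 (edgeR adjusted p = 0.938), and it turned to 0.36 when all libraries were thinned to the smallest total.

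For uncoating, Synj (FBgn0034691, chromosome 2R, 22080176 to 22085767, plus strand) encodes synaptojanin, the phosphatase that removes the lipid holding the coat in place. It measured 20.1, 60.5, 44.5 and 8.20 CPM in synaptosomes and 80.7, 54.9, 58.3 and 44.0 CPM in input. Synaptosome libraries 1 and old lay below input, and 2 and 3 within its range. The log2 fold change was −0.85 ± 0.66 (edgeR adjusted p = 0.672).

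The order of the genes also differed between the groups, though few steps of it exceeded the spread. In input, mean levels ran from shi (126 ± 39.2 CPM) over EndoA (120 ± 66.8), Eps-15, Chc, Synj, Clc, AP-2alpha and lap to Amph (24.7 ± 4.13) and Dap160 (14.6 ± 2.71). Of the 9 neighbouring pairs only Amph and Dap160 had ranges that did not overlap. In synaptosomes the order ran from shi (73.1 ± 20.4 CPM) over Eps-15, Synj, AP-2alpha, Clc, Amph, EndoA, Dap160 and Chc to lap (5.39 ± 5.84), and all 9 neighbouring pairs overlapped. EndoA had rank 2 in input and rank 7 in synaptosomes, and Chc rank 4 and rank 9.

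Libraries of synaptosomes also varied more from each other than libraries of input. The median coefficient of variation of the 10 genes was 65.6% in synaptosomes and 27.0% in input. For all tested genes in the same range of input CPM it was 81.0% and 32.4%. The medians of the 10 genes were lower, but genes were not matched by level within that range. Different libraries were lowest for different genes: synaptosome 1 for AP-2alpha and EndoA, 3 for Chc, Clc and Eps-15, 2 for lap, shi and Dap160, and old for Amph and Synj.

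Among other endocytosis genes, a list of 26 that includes the remaining AP-2 subunits, uncoating factors and early endosome genes, 23 were in the count table and tested. By edgeR 0 of 23 were called in either direction, while DESeq2 called 1 (PIP5K59B) lower. The edgeR fit had 4 lower and 0 higher at an unadjusted p under 0.05, 17 negative and a median log2 fold change of −0.41. PIP5K59B, a kinase that makes the lipid to which AP-2 binds, had the smallest p of the list. It measured 2.10, 14.0, 0 and 5.63 CPM in synaptosomes and 99.1, 41.2, 72.1 and 27.4 CPM in input, with no overlap. Its log2 fold change was −3.50 ± 1.07 (edgeR adjusted p = 0.0941).

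Hsc70-4, the chaperone that pulls clathrin off the vesicle, measured 235, 535, 236 and 725 CPM in synaptosomes and 1173, 1008, 1143 and 807 CPM in input, also without overlap. Its log2 fold change was −1.25 ± 0.43 (edgeR adjusted p = 0.155). synd, the fly syndapin, a curved membrane-binding protein, had a log2 fold change of −1.45 ± 0.51 (edgeR adjusted p = 0.172), with synaptosome 3 at 158 CPM just above input old at 154 CPM. None of these passed in edgeR. Neither did the other AP-2 subunits AP-2mu (0.22 ± 0.84, edgeR adjusted p = 0.958) and AP-2sigma (0.16 ± 0.41, edgeR adjusted p = 0.935), whose log2 fold changes were near 0.

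Most of the 10 genes use several 3′ ends, and the end where a transcript stops sets its 3′ UTR, the stretch that carries many localization signals. The deposited list of known ends held 86 for these genes, from 4 for AP-2alpha to 16 for shi. Of these, 59 lay in an annotated 3′ UTR, 21 elsewhere inside the gene and 6 outside it. The count table held 32 ends of the 10 genes, named by gene and number, with no coordinates, so an end number below says nothing about UTR length. Of the 32 ends, 30 had counts in input, 23 had counts in synaptosomes and 19 passed the filter.

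At the level of ends, 0 of the 19 tested were called by edgeR, while DESeq2, which tested 30, called Dap160.5 and EndoA.7 lower. Over all 11062 tested ends edgeR called 6.46% lower and 0.732% higher. DESeq2 called 1274 ends lower and 226 higher over all genes, against 715 and 81 with edgeR. By log2 fold change 17 of the 19 were negative with a median of −1.11, against 65.3% negative and a median of −0.48 over all tested ends. In 7 of the 19 every synaptosome library lay below every input library, against 16.9% of all ends. At an unadjusted p under 0.05, 2 of the 19 were lower (EndoA.6 and Dap160.5) and 0 higher, against 11.8% of all ends lower. The filter asks for enough counts in as many libraries as a group holds, so an end could pass on input counts alone. Dap160.5, lap.9 and shi.3 each had counts in only 1 synaptosome library. The shares of negative ends and of ends without overlap are therefore partly set by the filter, among all ends as among these.

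Among the 7 genes with at least 2 tested ends, only Dap160 had an unadjusted p under 0.05 in edgeR's test of end usage. Over all genes tested this way the share was 16%, so 1 of 7 is near it. Dap160, the gene whose total level was steadiest among synaptosome libraries, is described further, a choice made after its end counts were seen. Its end 1 had 54, 10, 19 and 82 counts in synaptosomes and 64, 73, 63 and 125 in input. Its end 5 had 0, 0, 0 and 9 counts in synaptosomes and 72, 27, 166 and 86 in input. End 1 therefore took 100%, 100%, 100% and 90.1% of Dap160 counts in synaptosomes and 47.1%, 73.0%, 27.5% and 59.2% in input. The groups did not overlap in this share. The exact 95% binomial interval reached down to 69.2% in synaptosome 2, which had 10 counts, and the highest input library reached 81.4%. These intervals cover counting error only, and end shares spread further than that between synaptosome libraries. End 1 of AP-2alpha, for instance, took 0 of 42 counts in synaptosome 2 and 277 of 277 in synaptosome old. The intervals therefore cannot separate the groups in any library.

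Over libraries the share at end 1 was 97.5% ± 4.95 against 51.7% ± 19.3, and a 2-sided exact permutation test gave p = 0.0286, the smallest that 4 against 4 libraries can give, 1 of 10 such unadjusted tests. In edgeR's test of end usage across the 2216 genes with at least 2 tested ends, the adjusted p of Dap160 was 0.126, so it was not called. End 5 itself had a log2 fold change of −4.48 ± 1.66 (edgeR adjusted p = 0.183, DESeq2 adjusted p = 0.0186). In the numbered libraries, where it had no synaptosome count, its mean input level of 8.31 CPM was 4.88 times the mean floor of 3 counts per library. Without synaptosome old, both passed: the edgeR adjusted p of end 5 was 0.0346 and that of Dap160 end usage 0.0205. That library held the only synaptosome counts of end 5. Without it edgeR called 1956 ends lower over all genes, against 715 with all libraries, so the rise in calls was not particular to Dap160. Leaving out any other single library gave adjusted p-values of 0.148 to 0.445 for end 5 and 0.0957 to 0.395 for usage, and with a batch term for the libraries named old they were 0.0997 and 0.0909 (edgeR). End 1 alone had a log2 fold change of 0.47 ± 1.07 (edgeR adjusted p = 0.930).

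**Figure D4:**
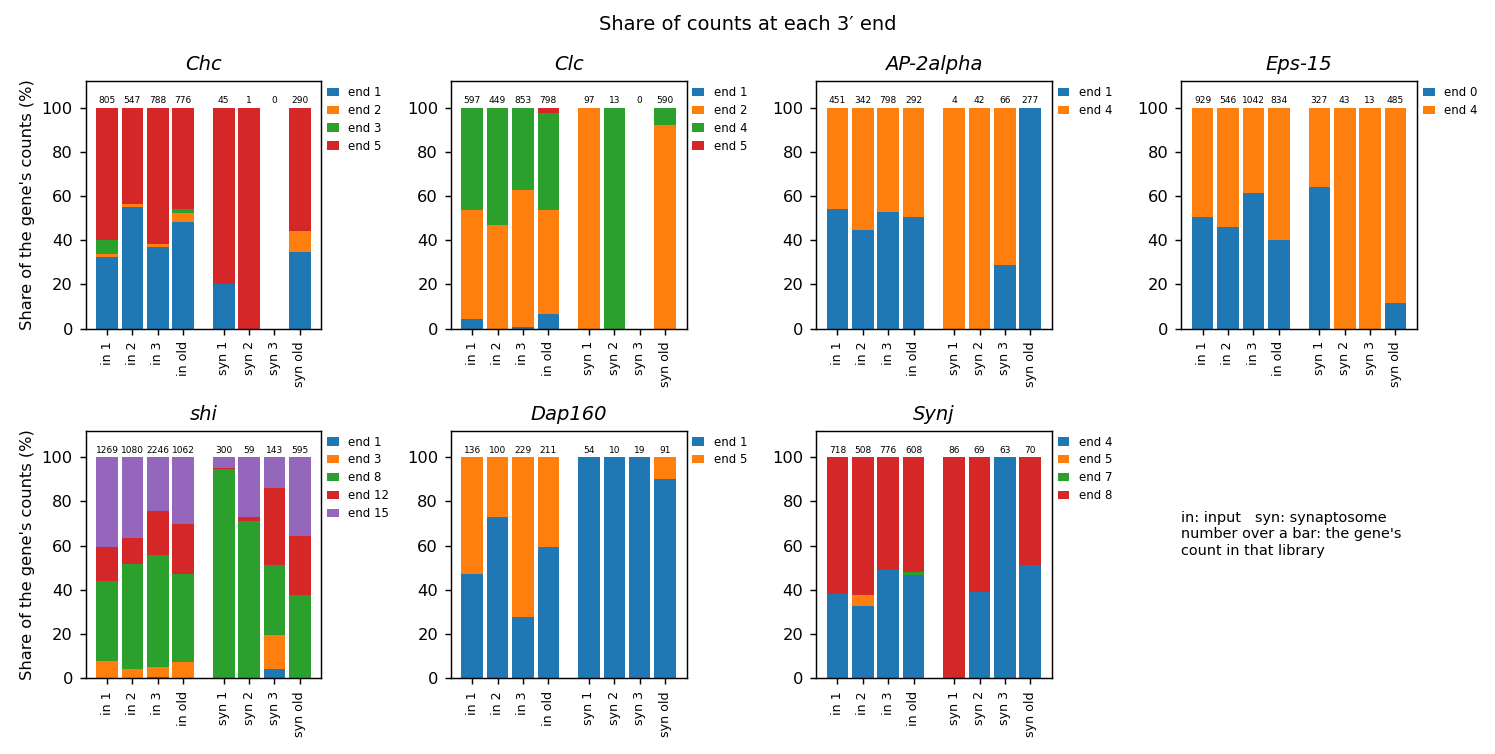
Share of each gene's counts at each of its 3′ ends in percent, for the 7 genes with at least 2 tested ends, in the 4 input (in) and 4 synaptosome (syn) libraries. The number over a bar is the gene's count in that library. Input bars hold at least 2 ends in all libraries, while many synaptosome bars hold 1, and for Dap160 that end is end 1 in synaptosome libraries 1, 2 and 3.

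In edgeR's test of end usage 0 of the 7 genes with at least 2 tested ends were called, with Dap160 the only one at an unadjusted p under 0.05. Over all genes tested this way 3.56% were called and 16% had an unadjusted p under 0.05. The other 6 genes (Chc, Clc, AP-2alpha, Eps-15, shi and Synj) had adjusted p-values of 0.719 to 0.944. Usage could not be fitted for lap, EndoA and Amph, which had 1 tested end each.

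AP-2alpha shows how far single synaptosome libraries departed from an even input. Its end 1 took 54.1%, 44.4%, 52.6% and 50.3% of counts in input. In synaptosomes it took 0 of 4, 0 of 42, 19 of 66 and 277 of 277 counts. Libraries 2 and old thus showed opposite ends of the same gene, each with no count at the other, and the usage test gave an adjusted p of 0.934. For Synj, synaptosome 1 had all 86 counts at end 8 and synaptosome 3 all 63 at end 4. Clc had all 97 counts of synaptosome 1 at end 2 and all 13 of synaptosome 2 at end 4.

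Counted over libraries in which a gene had at least 10 counts, all counts fell at 1 end in 11 of 24 cases in synaptosomes and 0 of 28 in input for the 7 genes. Over all genes with at least 2 tested ends these shares were 38.3% and 2.34%. With every library thinned to the smallest total they were 12 of 23 and 5 of 26 for the 7 genes, and 40.5% and 17.3% over all genes. Ends of the 10 genes with a count numbered 12 to 19 per synaptosome library and 26 to 29 per input library, and 12 to 16 and 19 to 24 after thinning.

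Of the most abundant input end of each gene, those of EndoA, Amph, Chc and shi had fold changes near that of their gene, and those of Dap160, lap, Eps-15, AP-2alpha, Clc and Synj departed further from it. EndoA.6, which carried 95.5% to 99.8% of EndoA counts in input, had 9, 36, 46 and 255 counts in synaptosomes and 1306, 1706, 1208 and 548 in input, with a log2 fold change of −2.42 ± 0.79 (edgeR adjusted p = 0.108). lap.9, with 93.7% to 99.1% of lap counts in input, had 47, 0, 0 and 0 counts in synaptosomes, where the 14 and 6 counts of libraries 3 and old lay at end 7. Amph.4 held all Amph counts in synaptosomes and 84.3% to 99.7% in input. With 35 to 147 Amph counts per synaptosome library the exact 95% binomial intervals had lower bounds of 89.997% to 97.5%, and input 3 had 1 count of 298 at the other end, so a difference from that library was not detectable at this depth.

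Chc.5 had a log2 fold change of −2.39 ± 1.22 (edgeR adjusted p = 0.424) and no overlap between the groups. The main ends of the others, shi.8 (−0.62 ± 0.58), Clc.2 (−0.59 ± 1.35), Synj.8 (−1.33 ± 1.15), Eps-15.0 (−1.57 ± 1.37) and AP-2alpha.1 (−1.01 ± 1.501), overlapped between groups, with edgeR adjusted p-values of 0.719 to 0.930. In 4 genes (AP-2alpha, Eps-15, Dap160 and Synj) the end with the highest mean CPM was another one in synaptosomes than in input, and for the first 3 of these genes the shares of the leading pair of ends overlapped in input.

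No count in any synaptosome library was found for 7 ends that had input counts: Chc.3, Clc.1, Clc.5, Amph.1, Synj.5, Synj.7 and EndoA.7. All were minor ends in input. EndoA.7 was the most abundant of them, with 61, 65, 37 and 1 counts in input. Its mean input level was 3.23 times the mean floor of 3 counts per synaptosome library (1.36 CPM), but input old, at 0.0764 CPM, lay below that floor. For Amph.1 (31, 33, 1 and 33 counts) the mean was 1.83 times the floor, with input 3 below it at 0.0804 CPM. The mean input levels of Clc.5, Synj.5 and Synj.7 lay below the floor too. The ends lap.3 and lap.5 had no count in any of the 8 libraries.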

How the data were processed

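The 10 genes and the marker and comparison lists were chosen with earlier results of these data known. According to the methods and the notes given to GEO, the authors used fastp for trimming and STAR 2.6.1b for alignment to dm6. They masked internal priming and joined 3′ peaks into ends, kept where they met ends known from long reads or annotation. The authors deposited raw whole-number counts per gene and per end, made without molecular identifiers, so intervals and floors cover counting error only. Ends known from neither source cannot be seen. The authors' own comparison columns, made with DESeq2, were not used. Gene positions came from the BDGP6.54 annotation (the dm6 assembly, Ensembl release 115), 1-based. The labels describe head powder of frozen flies, whereas the methods describe fresh heads for synaptosomes. 

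For the tests, edgeR 4.0.16 in R 4.3.3 was run on the counts (filterByExpr, TMM, robust quasi-likelihood test, no covariates, Benjamini-Hochberg adjustment over all genes or ends, threshold 0.05), and end usage was tested with its diffSpliceDGE. DESeq2 1.42.0 was an alternative. SE is the absolute log2 fold change over the square root of F. Named were the 10 genes, the main input end of each, and the 3 genes of smallest p among the other endocytosis genes. Other ends and AP-2 subunits named were chosen after their values were seen. Scripts were tested on simulated data. Alternatives were other scalings, filters, thinning, DESeq2, leaving out libraries, a batch term for the libraries named old, and a replicate block.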

Additional observations from a re-analysis of the deposited data

Results flagged for a closer look

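Among 24 sets of 4 libraries checked for a library far from the others (the CPM of each gene and 2 sums, in each group), 3 had one, where chance gives about 1 in 20. Chc in input 1 was at 90.5 CPM, above 56.1 to 59.2 CPM in the other input libraries. Amph was also highest in input 1, at 30.9 CPM against 22.4 to 22.9 CPM. EndoA was lowest in synaptosome 1, at 2.10 CPM against 30.8 to 32.5 CPM, and without that library its log2 fold change was −1.93 (edgeR adjusted p = 0.0797).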

How the results depend on the processing

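Of 180 gene-level fold changes of the 10 genes under 18 alternatives, 170 kept their direction and stayed on the same side of the threshold. No gene was called higher under any, and genes were called lower only with the replicate block. For Amph the sign turned to −0.13 with thinning, −0.13 with a batch term, −0.15, −0.0023 and −0.03 without synaptosome 1, 2 and 3, and −0.00014 without input old, against 0.34 without synaptosome old. It was −0.16 when synaptosome 2 and 3, the shallowest, were both left out, an alternative added after seeing the data. Dap160 turned to 0.36 with thinning. Counts of calls that moved from 0 were ends lower with DESeq2 (2), without synaptosome old (2, Chc.1 and Dap160.5) and without both libraries named old (2, Dap160.5 and EndoA.7), and end usage without synaptosome old (2, Dap160 and Amph), without both (1, Dap160) and by the exact permutation test of the main end's share (2, unadjusted, where Amph rests on 1 count in input 3). Over the analyses that left out 1 library each, these counts ran from 0 to 2. Over all genes, ends called lower numbered 715 in the main test and 1274 with DESeq2. They numbered 1956 without synaptosome old and 1575 without both libraries named old. The causes were not tested.

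With the replicate block on the numbered libraries, 2 genes were lower, Chc (−5.41, edgeR adjusted p = 0.0340) and EndoA (−3.24, edgeR adjusted p = 0.0229), and 1 end (EndoA.6), while Dap160.5 was not (edgeR adjusted p = 0.267) and the median of all genes moved to −1.26. Deviations of same-numbered libraries correlated at −0.017, 0.011 and −0.078 across genes. With synaptosome 2 and 3 shallow, these values do not settle whether the libraries are pairs, and the main test left them unpaired. Input came from the homogenate that was later fractionated, but the sources do not say that a number marks a shared preparation. Without synaptosome 2 and 3, fold changes moved most for Synj (−2.02), Chc (−1.51), Clc (−0.31), AP-2alpha (−1.27) and Eps-15 (−0.12). Libraries also differed in depth: synaptosome 2 and 3 held 1029666 and 1367641 counts, and every input library held 7940909 or more. Leaving out any 1 library other than synaptosome old, of either group, gave at most 20 lower genes across the whole table. There were 337 with all libraries, 984 without synaptosome old and 1 without both synaptosome 2 and 3. Whether depth, spread or the number of libraries set these counts was not tested. The median of all genes was −0.26 with median-of-ratios scaling and −0.41 with library totals, with 9 of the 10 genes negative under each.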

Other observations

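The balance of the clathrin chains was looked at after the levels were seen. Chc made up 31.7%, 7.14% and 33.0% of the summed Chc and Clc counts in synaptosome libraries 1, 2 and old (142, 14 and 880 counts, exact 95% binomial intervals 24.1% to 40.0%, 0.181% to 33.9% and 29.9% to 36.2%). Synaptosome 3 had no count of either gene. In input Chc made up 57.4%, 54.9%, 48.0% and 49.3%, and the lowest bound of these 4 intervals was 45.6%. The ranges of the groups did not overlap, and the difference was not tested. The value of synaptosome 2 rests on 1 Chc count, and the intervals cover counting error only. Clc also overlaps another gene on its own strand, as said above.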
